A study of Mus musculus with 188 samples.

Results

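The cytosolic ribosomal protein genes were examined in organotypic brain slice cultures (BSCs), living coronal brain slices kept on membrane inserts, after exposure to red blood cell toxins or to complexes of these toxins with scavenger proteins. Membership was set by name and not by measured values. A gene belonged when its identifier maps to a mouse protein-coding gene whose symbol is Rpl or Rps followed by a number, with an optional closing letter a, x or l, or is Rplp0, Rplp1, Rplp2, Rpsa, Rpl13a or Fau. This gave 81 genes, 32 of the small and 49 of the large subunit, among 25655 genes listed in batch 1 and 25528 listed in batches 2 and 3. All 81 were listed in every library. The rule leaves out a few ribosomal proteins with other names, such as Rps3a1, Rack1, Rpl36al, Rpl22l1 and Rpl7l1, which are given as a separate list.

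BSCs came from young adult C57BL/6J wild-type mice of both sexes and were treated after a week in culture; each library is bulk RNA from cultured slices. In batch 1, 6 groups of 10 libraries were taken at 24 h: control (0 µM), heme-albumin at 12.5, 50, 200 and 400 µM (heme on its low-affinity carrier), and hemeHpx at 200 µM (heme bound to hemopexin). In batches 2 and 3, taken at 24 and 48 h, the groups were control (10 and 9 libraries), free hemoglobin (Hb) at 200 µM (10 and 10) and 400 µM (10 and 10), the hemoglobin-haptoglobin complex (HbHp) at 200 µM (8 and 8) and 400 µM (4 and 5), and haptoglobin alone (Hp) at 400 µM (12 and 11). All proteins added were of human origin. The sample titles of the hemeHpx group name haptoglobin, while its treatment tag and library names read hpx, and the tag was followed. Of 188 libraries, all but 21 could be placed in these 18 groups. The labels do not tie libraries to animals, so p-values measure the spread between these libraries. Library names carry a code of a letter and a number, whose meaning the labels do not give. In batch 1 each of the 9 codes occurs in all 6 groups, and some codes occur more than once in a group. The main fits left this code out and treated libraries as independent, and a block on it was run as an alternative.

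Each ribosome holds 1 copy of most ribosomal proteins, and cells make them in matched amounts for the small and large subunits. Their mRNAs are short, abundant and present in every cell type. Many begin with a run of pyrimidines after an initial C, the 5′ terminal oligopyrimidine (TOP) tract, through which their translation follows nutrient and mTOR signalling. New ribosomes are assembled in the nucleolus by a separate set of biogenesis factors, many of them targets of the transcription factor Myc. RNA-seq levels report mRNA amounts only, not translation.

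Start windows were printed for the family's shared sequence feature, for members that the results below turn on or that were named for their role. Each window runs from 10 bases before to 20 bases from the RefSeq start (build GRCm38.p6, strand of the gene), and capitals mark a C followed by at least 5 C or T that begins within 5 bases of that start.
Rps6, chr4:86857348-86857377, minus strand: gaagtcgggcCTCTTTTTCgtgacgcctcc
Rps26, chr10:128626487-128626516, minus strand: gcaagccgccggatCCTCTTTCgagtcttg
Rpl31, chr1:39367841-39367870, plus strand: tcctcgcCTCCCCgtgacccggaagttgta
Rpl13a, chr7:45128726-45128755, minus strand: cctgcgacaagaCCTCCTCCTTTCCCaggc
Rplp2, chr7:141447641-141447670, plus strand: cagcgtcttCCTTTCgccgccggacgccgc
Fau, chr19:6057937-6057966, plus strand: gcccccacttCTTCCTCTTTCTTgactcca
Such a tract was found in 26 of the 61 members with a RefSeq window (42.6%), against 11.95% of 27025 genes. Only the strand of the gene was searched, the listed start may not be the one used in brain, and a match is a description of letters.

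Assigned libraries held 11038484 to 54174784 counts (median 28939450), of which the 81 genes took 1.43 to 2.83% (median 1.92%). Counting error was therefore small: 78 of the 79 members that passed the filter on low counts had at least 366 counts in every library, and the exception was Rpl39l. Rpl10l and Rpl3l did not pass. No pair of libraries in a group agreed within sampling noise. Neuronal, astrocyte, oligodendrocyte and microglial markers were present in the cultures and erythroid genes were near 0.

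In batch 1 the share of counts on the family had similar ranges at all doses of heme-albumin. Control libraries ran from 1.43 to 2.21% (median 1.90%), heme-albumin 12.5 µM from 1.56 to 2.40% (1.93%), 50 µM from 1.44 to 2.37% (1.88%), 200 µM from 1.72 to 2.24% (2.02%) and 400 µM from 1.54 to 2.54% (1.91%). HemeHpx had the lowest median of the 6 groups, 1.69%, with libraries from 1.43 to 2.05%. All 6 ranges overlapped. In batches 2 and 3 the group medians ran from 1.79% in Hp at 48 h to 2.17% in the control at 48 h, and control libraries at 48 h spread from 1.56 to 2.46%. The highest single library was an HbHp 200 µM library at 48 h, at 2.83%, where the other 7 of its group were at or below 1.98%.

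**Figure D1:**
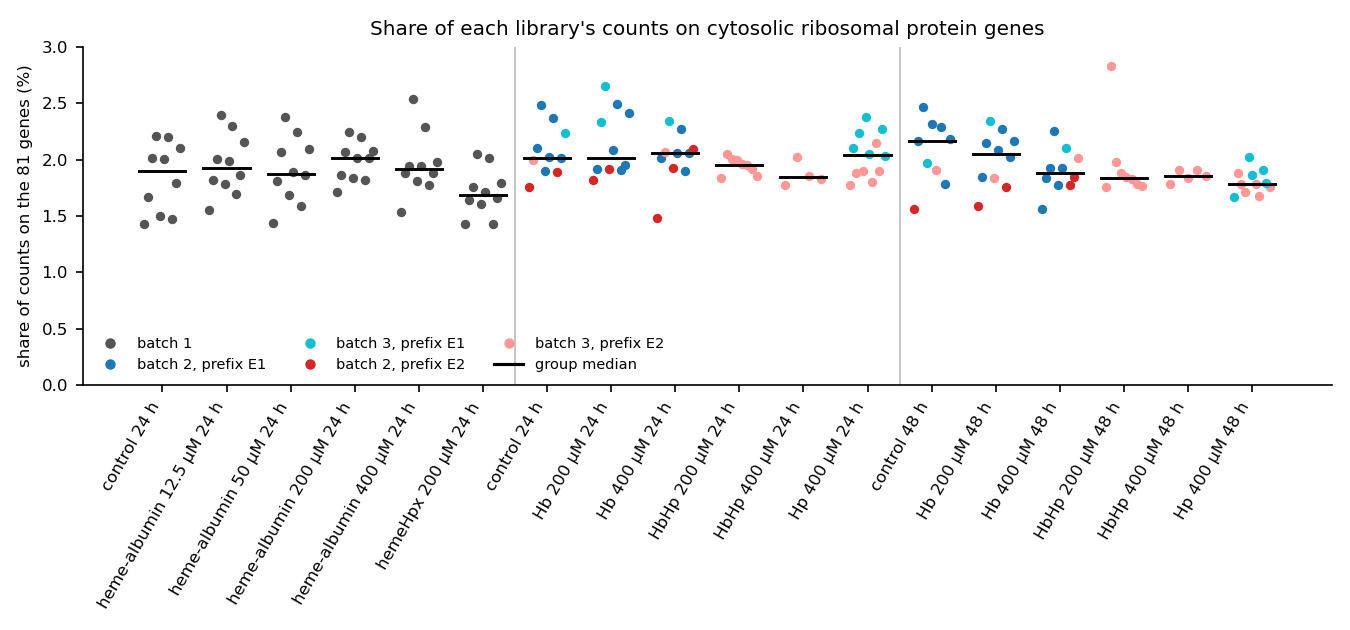
Share of all counts on the 81 cytosolic ribosomal protein genes, in percent, for each assigned library (points, coloured by batch and library-name prefix) with group medians (bars), batch 1 apart from batches 2 and 3. All groups overlap, hemeHpx has the lowest median in batch 1 (1.69%), and 1 HbHp 200 µM library at 48 h stands at 2.83%.

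Per transcript length, the most abundant members in batch 1 controls were Rps24 (mean 897 CPM per kb, where CPM are counts scaled to the library size), Rplp1 of the ribosomal stalk (866), Rpl41 (814), Rps12 (737) and Rps15 (623). Rpl39l was the lowest of the 79 tested members, at 0.64 CPM per kb, and lay above 12.1% of the genes tested, while Rps24 lay above 99.8%. The stalk, which recruits elongation factors, is built from Rplp0, Rplp1 and Rplp2, and at the gene level, not per length, batch 1 controls had medians of 470, 398 and 102 CPM for these genes. Rpsa, the small-subunit protein also known as the laminin receptor, stood at a median of 556 CPM, Rpl13a at 392 CPM, and Rps6, the target of S6 kinases, at 202 CPM. Levels of the genes that encode ubiquitin or ubiquitin-like fusions were 223 CPM for Rps27a and 119 CPM for Fau. Rpl5 and Rpl11, which with 5S rRNA bind Mdm2, had medians of 160 and 270.5 CPM, and Rps19, mutated in Diamond-Blackfan anemia, of 143 CPM.

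No member passed the test at any dose of heme-albumin. The edgeR quasi-likelihood test with Benjamini-Hochberg adjustment over all genes called 0 of 79 members at 12.5, 50, 200 and 400 µM, where 0.045%, 0.463%, 13.6% and 29% of all genes tested were called. At an unadjusted p under 0.05 the counts were 0, 1, 1 and 2 members, and DESeq2 also called 0 at each dose. At 12.5 µM, 1226 of all 15554 genes tested had an unadjusted p under 0.05. The members' median log2 fold changes were 0.08, 0.06, 0.08 and 0.05, with a median standard error (SE) of 0.094 per gene. At 200 µM, data simulated with the same groups recovered 84.6% of 13 members given a log2 change of 0.5 and 0% of 14 members given 0.25. Shifts of single members near 0.25 could thus be missed in such data. The simulation left 15354 genes unchanged and drew genes independently, while 2113 genes were called in the real comparison. The adjusted threshold therefore differed, and these rates do not give the recovery in the real test. At 400 µM, Rplp0 had a log2 fold change of 0.08 (SE 0.096, adjusted p = 0.572), Rps6 0.05 (SE 0.094, adjusted p = 0.734) and Rpsa 0.20 (SE 0.091, adjusted p = 0.091).

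The genes that build ribosomes did move with heme-albumin. Of 50 ribosome biogenesis factors, 26 rose and 0 fell at 200 µM (median log2 fold change 0.25), and 38 rose and 0 fell at 400 µM (median 0.33), where 6.98% and 14.7% of all genes rose. Myc, a transcription factor counted on this list, rose by 0.60 (SE 0.104) at 200 µM and by 0.88 (SE 0.105) at 400 µM on the log2 scale. Nop14, a factor for small-subunit processing, rose by 0.62 (SE 0.067) at 400 µM. Of 78 mitochondrial ribosomal protein genes, 3 rose at 200 µM, and 19 rose and 2 fell at 400 µM, with Mrpl38 (0.54, SE 0.086) and Mrps18b (0.40, SE 0.073) highest. Among 21 elongation factor and other TOP genes, 2 rose and 1 fell at 400 µM, with Eif3a at 0.21 and Tpt1 at -0.19. The difference between the lists and the cytosolic family was not tested. Cell type markers were also called, where 13.6% and 29% of all genes were called in either direction at 200 and 400 µM. At 200 µM 7 of 9 microglial and 4 of 8 astrocyte markers fell. At 400 µM 3 of 9 microglial, 6 of 8 astrocyte and 4 of 12 proliferation markers fell. Of 12 neuronal markers, 1 and 2 rose at 200 and 400 µM, near the 6.98% and 14.7% of all genes that rose. The part of the markers in the change of the lists was not tested.

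HemeHpx at 200 µM was the batch 1 treatment with members past the threshold, all of them lower. Against the control, 7 of 79 members fell and 0 rose, where 4.44% of all genes fell. The 7 were Rpl23a, Rps26, Rpl26, Rps28, Rps6, Rpl31 and Rpl17, with adjusted p from 0.0394 to 0.0492 (edgeR). DESeq2 called 11. Rpl23a, a large-subunit protein near the exit tunnel, ran from 106 to 272 CPM in controls (median 175) and from 104 to 156 CPM with hemeHpx (median 141), and fell by 0.44 on the log2 scale (SE 0.135, adjusted p = 0.0426). Rps26, a protein at the mRNA exit channel, ran from 149 to 351 CPM in controls (median 234) and from 147 to 208 CPM with hemeHpx (median 196), and fell by 0.39 (SE 0.126, adjusted p = 0.0478). Rps6 ran from 147 to 265 CPM in controls (median 202) and from 143 to 184 CPM with hemeHpx (median 169), and fell by 0.30 (SE 0.094, adjusted p = 0.0433). In each of the 3 genes the ranges overlapped, and the highest hemeHpx library lay below the control median.

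Of the 79 members, 22 had an unadjusted p under 0.05 in that comparison, all lower. This count is given without the share of all genes at that threshold, so it cannot be set against a background. Among members of known role, log2 fold changes were -0.05 for Rplp0, 0.09 for Rplp1 and 0.18 for Rplp2 (SE 0.096, 0.122 and 0.171), and -0.03 for Rpsa and Rpl13a, none past the threshold. A negative value was found in 59 members, with a median of -0.10. The count depended on the processing: over the alternatives run it went from 0, under a correction for transcript GC content and length alone and without the filter on low counts, to 23, all lower. A block on the code in the library names raised it. Across all genes the fold change rose with GC content in this comparison (Spearman rho 0.55 over 15533 genes, 0.33 over the 79 members). Against the same controls, rho over all genes was 0.54, 0.51, 0.26 and 0.25 for heme-albumin at 12.5, 50, 200 and 400 µM. The part of GC in the result beyond that correction was not tested.

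Set against heme-albumin at the same heme dose of 200 µM, hemeHpx had 24 of 79 members lower and 0 higher, where 12.9% of all genes fell (edgeR, adjusted p under 0.05). DESeq2 called 26 lower and 1 higher. Over the alternatives run, the count called in either direction went from 19 to 46, with 43 under the GC and length correction. A block on the code in the library names also raised it. The small-subunit members among the 24 included Rps2, Rps6, Rps12, Rps15a, Rps26, Rps27l and Rps28, and the large-subunit members included Rpl4, Rpl6, Rpl7, Rpl7a, Rpl14, Rpl17, Rpl19, Rpl22, Rpl23a, Rpl24, Rpl26, Rpl28, Rpl31, Rpl37 and Rpl41. The median log2 difference over the members was -0.19, and 76 of 79 were negative. This comparison and that with the control share the hemeHpx libraries. Rps26 ran from 179 to 349 CPM with heme-albumin (median 237) and fell by 0.38 (SE 0.126, adjusted p = 0.0215) with hemeHpx. Rpl23a ran from 125 to 250 CPM with heme-albumin (median 168) and fell by 0.36 (SE 0.135, adjusted p = 0.0401). Rps6 ran from 172 to 262 CPM with heme-albumin (median 201) and fell by 0.32 (SE 0.094, adjusted p = 0.0105). In all 3 genes the hemeHpx libraries, given above, overlapped the heme-albumin range but had their highest value below the heme-albumin median. Rps27l, a paralog of Rps27 and a p53 target, fell by 0.25 (SE 0.088, adjusted p = 0.0304). Rpl5 had a log2 difference of -0.22 (adjusted p = 0.0619), Rpl11 of -0.13 (adjusted p = 0.290) and Fau of -0.02 (adjusted p = 0.888).

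Members of the other translation lists also fell with hemeHpx against heme-albumin, where 12.9% of all genes fell. On the biogenesis list 46 of 50 genes fell and 0 rose (median -0.35). Nop58, a core protein of box C/D snoRNPs, had -0.63 on the log2 scale. Myc, a transcription factor counted on that list, had -0.59. Of the TOP genes outside the family, 14 of 21 fell, with Npm1, a nucleolar chaperone, at -0.49 and Eif3e at -0.37, and 19 of 78 mitochondrial ribosomal protein genes fell, with positive values in 17 of the 78. Against the control the same lists gave 3 of 50, 5 of 21 and 2 of 78 lower, with 0, 0 and 1 higher. Of the ribosomal proteins outside the rule, 3 of 6 fell against heme-albumin, among them Rps3a1 (-0.27) and Rpl36al (-0.20). Cell type markers also differed between hemeHpx and heme-albumin: 8 of 9 microglial, 4 of 8 astrocyte and 4 of 8 oligodendrocyte markers rose. The share of all genes that rose is not given here. Of 12 proliferation markers 2 fell, near the 12.9% of all genes that fell. The part of the markers in the ribosomal protein result was not tested. In bulk RNA fewer cells of a type and less RNA per cell cannot be told apart. Summed proliferation markers ran from 527 to 933 CPM (median 717) with hemeHpx and from 581 to 1251 CPM (median 940) in controls.

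**Figure D2:**
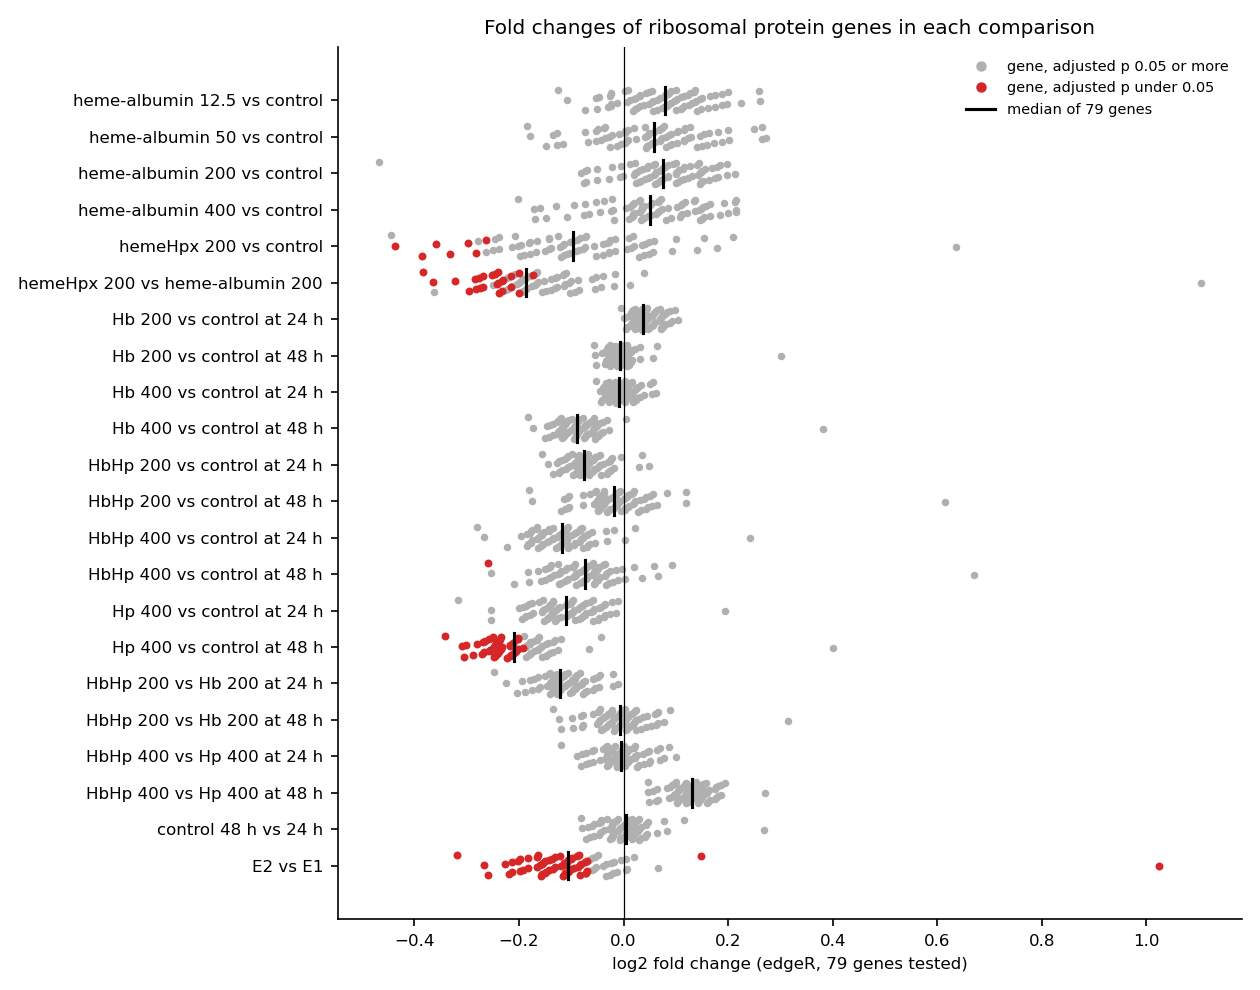
Log2 fold change of each of the 79 tested members (points) in every comparison, with the members' median as a bar and members at an adjusted p under 0.05 (edgeR) in a separate colour. Medians lie near 0 for heme-albumin and Hb and reach -0.19 for hemeHpx against heme-albumin and -0.21 for Hp at 48 h.

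**Figure D3:**
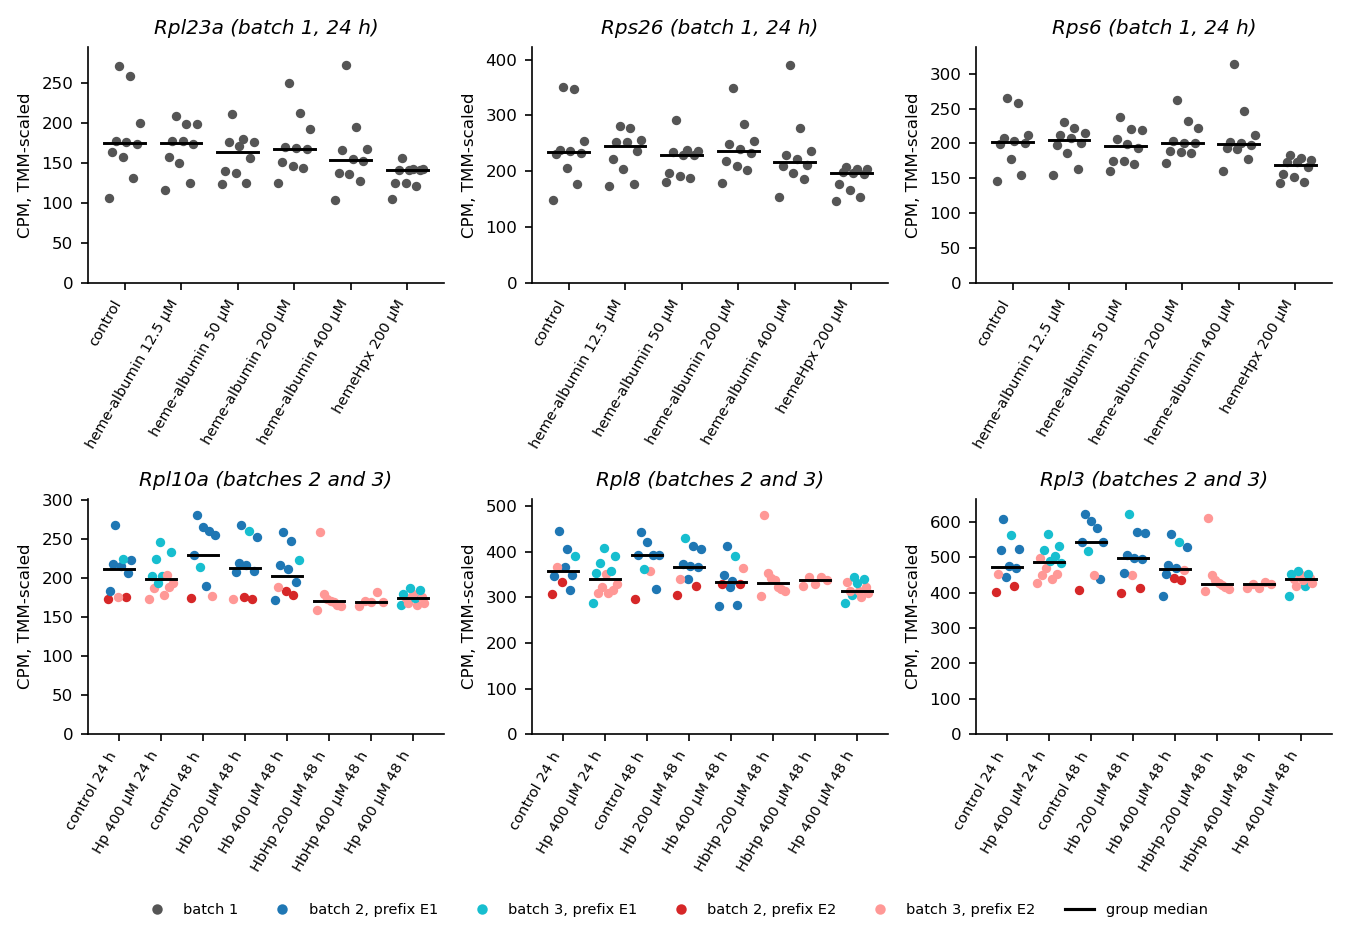
Levels in CPM of named members in each library (points, coloured by batch and library-name prefix) with group medians (bars), the axes starting at 0. HemeHpx libraries lie in the low part of the control range or below it for Rpl23a, Rps26 and Rps6. The same holds for Hp libraries at 48 h against their controls for Rpl10a, Rpl8 and Rpl3.

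No member passed the test with free hemoglobin. At 24 and 48 h edgeR called 0 of 79 members at 200 µM, where 0.0971% and 0.31% of all genes were called, and 0 of 79 at 400 µM, where 0.522% and 0.601% were called. DESeq2 also called 0 in these 4 comparisons. Unadjusted p was under 0.05 for 0 members except at 400 µM and 48 h, with 9 members, all negative. These counts are given without the share of all genes at that threshold. Median log2 fold changes were 0.04 and -0.01 at 200 µM and -0.01 and -0.09 at 400 µM, with 77 of 79 values negative in the last. Members varied together within groups (median r 0.89, described with the covariation), so a count of signs is not a count of independent genes. At 400 µM and 48 h, Rplp1 had a log2 fold change of -0.15 (SE 0.075, adjusted p = 0.695) and Rpl13a of -0.13 (SE 0.062, adjusted p = 0.678).

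With HbHp, 1 member passed the test, in the fit with batch and library-name prefix as terms. At 200 µM, 0 of 79 members were called at 24 h and at 48 h, where 1.93% and 11.9% of all genes were called, and unadjusted p was under 0.05 for 1 and 2 members. At 400 µM, 0 members were called at 24 h (5.15% of all genes, 6 members at an unadjusted p under 0.05), and 1 fell at 48 h, where 4.56% of all genes fell. DESeq2 called 0 in the 3 comparisons without a call. The counts at an unadjusted p under 0.05 are given without the share of all genes at that threshold. The member called at 400 µM and 48 h was Rpl3, a protein at the peptidyl transferase centre. Its control libraries at 48 h ran from 407 to 621 CPM (median 541) and the 5 HbHp libraries held 414, 430, 413, 425 and 425 CPM. All 5 lay below the control median and inside the control range, and the gene fell by 0.26 (SE 0.088, adjusted p = 0.0378). Leaving out any of 4 of the 5 HbHp libraries (replicates 1, 3, 4 and 5) ended the call, as did E2 libraries alone and batch 3 alone. All HbHp libraries belong to batch 3 and to the prefix E2, whose meaning the labels do not give, against 1 control at each time with both. Without the terms for batch and prefix, HbHp 200 µM at 48 h had 5 members higher and 3 lower.

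Scavenged and free hemoglobin did not differ in any member past the threshold. HbHp against Hb at 200 µM gave 0 of 79 calls at 24 h (0.607% of all genes) and at 48 h (4.98%), with 11 and 0 members at an unadjusted p under 0.05 and 1 and 0 calls by DESeq2. At 24 h all 79 values were negative (median -0.12), and at 48 h the median was -0.01. Without the prefix term the counts were 12 and 2. HbHp against Hp at 400 µM gave 0 calls at 24 h (0.619% of all genes, 0 members at an unadjusted p under 0.05) and at 48 h (1.44%, 21 members, all higher), and DESeq2 called 0 in both. At 48 h all 79 values were positive with a median of 0.13, and at 24 h the median was 0.00. Hp against Hb at 400 µM and 48 h, a contrast added after the data were seen, gave 0 calls (1.01% of all genes), with 25 members at an unadjusted p under 0.05 and a median of -0.11. In all these comparisons the counts at an unadjusted p under 0.05 are given without the share of all genes at that threshold.

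Haptoglobin alone had members past the threshold at 48 h and none at 24 h. At 24 h 0 of 79 members were called, where 0.704% of all genes were (DESeq2, 0 calls). Unadjusted p was under 0.05 for 28 members, all negative, and the share of all genes at that threshold is not given here. At 48 h 42 members fell and 0 rose, 16 of the small and 26 of the large subunit, where 5.88% of all genes fell (edgeR, adjusted p under 0.05), and DESeq2 called 48. The small-subunit members included Rpsa, Rps2, Rps4x, Rps9, Rps12, Rps13, Rps15, Rps16, Rps18, Rps20, Rps25, Rps26 and Rps28. The large-subunit members included Rplp0, Rplp1, Rpl3, Rpl4, Rpl5, Rpl7a, Rpl8, Rpl10a, Rpl11, Rpl12, Rpl13, Rpl13a, Rpl14, Rpl18, Rpl21, Rpl23a, Rpl26, Rpl27a, Rpl28, Rpl29, Rpl32, Rpl36a, Rpl37a, Rpl38 and Rpl41. The median log2 fold change was -0.11 at 24 h and -0.21 at 48 h. The difference between the 2 effects, fitted as an interaction term, had 0 of 79 members and 0% of all genes past the threshold, with 12 members at an unadjusted p under 0.05, and a median of -0.09, so the effect was not shown to differ between the times. The count of 12 is also given without the share of all genes at its threshold.

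Rpl10a, the protein of the L1 stalk, ran from 174 to 281 CPM in controls at 48 h (median 230) and from 165 to 187 CPM with Hp (median 175), and fell by 0.34 (SE 0.082, adjusted p = 0.0038). Rpl8, next to the peptidyl transferase centre, ran from 296 to 443 CPM in controls (median 392) and from 287 to 343 CPM with Hp (median 314), and fell by 0.31 (SE 0.072, adjusted p = 0.0028). Rpl3 ran from 390 to 460 CPM with Hp (median 439), against the control range given above, and fell by 0.31 (SE 0.071, adjusted p = 0.003). For these 3 genes the ranges overlapped at the low end of the controls, and no Hp library reached the control median. In the stalk, Rplp0 fell by 0.26 and Rplp1 by 0.25 (adjusted p = 0.0209 and 0.041), while Rplp2 had a value of -0.16 (adjusted p = 0.191). Rpsa fell by 0.25, Rpl13a by 0.24, Rpl11 by 0.22 and Rpl5 by 0.19. Rps6 (-0.18, adjusted p = 0.0558), Rps19 (-0.16), Rps27a (-0.15), Fau (-0.15) and Rps27l (-0.07) did not pass.

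The count of 42 depended on the processing and on the controls used, going from 0 to 57 over the alternatives run, with 27 when low counts were not filtered. A block on the code in the library names lowered it, as given with the dependence on the processing. All 11 Hp libraries at 48 h belong to batch 3, and 7 of the 9 controls to batch 2. Batch 3 alone, with 2 controls, gave 0 calls and a median of -0.10, with Rpl10a at -0.15 and Rpl8 at -0.17. The libraries with prefix E2 alone, again with 2 controls, gave 0 calls and a median of -0.06, and those with prefix E1 alone gave 57 calls and a median of -0.30. Without terms for batch and prefix, 30 members fell. The share of counts on the family was 1.67 to 2.03% in the 5 Hp libraries of prefix E1 and 1.68 to 1.89% in the 6 of prefix E2. It was 1.79 to 2.46% in the 6 controls of batch 2 and prefix E1, 1.56% in the control of batch 2 and prefix E2, and 1.97% and 1.91% in the controls of batch 3. Of the batch 3 controls, the one of prefix E1 lay inside and the one of prefix E2 just above the range of the Hp libraries of its prefix.

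The family also moved with batch and prefix. Over all groups in the fit, E2 libraries had 55 members lower and 2 higher than E1 libraries, where 31.9% of all genes were lower and 36.1% higher. Rps4x (-0.32, SE 0.038), Rpl10a (-0.27, SE 0.038) and Rpl23a (-0.26, SE 0.035) were lowest, and Rpl39l (1.02, SE 0.202) and Fau (0.15, SE 0.029) were the 2 higher. Batch 3 had 41 members higher and 0 lower than batch 2 (8.68% of all genes higher), with a median of 0.13. Between control libraries at 48 and 24 h, 0 members were called (4.5% of all genes), 0 had an unadjusted p under 0.05, DESeq2 called 0, and the median was 0.00.

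Within the Hp libraries, which all belong to batch 3, with 5 or 6 of each prefix at each time, 20 of 79 members were lower at 48 than at 24 h and 0 higher, where 11.4% of all genes were lower. Rps26 ran from 153 to 234 CPM at 24 h (median 181) and from 146 to 178 CPM at 48 h (median 152), and was lower by 0.24 on the log2 scale (SE 0.060, adjusted p = 0.0028). The 2 ranges overlapped, and no library at 48 h reached the median of 24 h. Rpl7a had a log2 difference of -0.19 (adjusted p = 0.0079). This contrast was added after the data were seen. In it 8 of 9 microglial, 2 of 12 neuronal and 2 of 8 astrocyte markers were higher. Of 12 proliferation markers 9 were lower, as was 1 of 8 oligodendrocyte markers. The share of all genes that were higher is not given here. The part of the markers in this difference was not tested.

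With Hp at 48 h, where 5.88% of all genes fell, members of the other translation lists fell too. Of the biogenesis factors 13 of 50 fell, with Rrp1b at -0.38 and Grwd1 at -0.36, of the TOP genes 9 of 21, with Hnrnpa1 and Pabpc4 both at -0.35, and of the mitochondrial ribosomal protein genes 8 of 78, with Mrps6 at -0.42 and Mrps28 at -0.33. None of these lists had a member that rose. Among the ribosomal proteins outside the rule, Rpl22l1 fell by 0.47 and Rack1, a scaffold on the small subunit, by 0.23. Of 12 proliferation markers, 10 fell, and their sum ran from 715 to 1284 CPM in controls at 48 h (median 1042) and from 589 to 818 CPM with Hp (median 725). With HbHp, 8 of 12 also fell at 200 µM and 48 h, 10 at 400 µM and 24 h, and 8 at 400 µM and 48 h. There the family had 0, 0 and 1 members called, where 11.9% and 5.15% of all genes were called in either direction and 4.56% fell. Between prefixes, where 31.9% of all genes were lower and 36.1% higher in E2, 11 of 12 proliferation markers were lower and 1 higher. Opposite to most of the family, 9 of 9 microglial and 8 of 8 oligodendrocyte markers were higher in E2. Of 12 neuronal markers 7 were higher and 2 lower, and of 8 astrocyte markers 4 and 2. With Hp at 48 h 0 of 9 microglial markers were called, and 1 neuronal and 1 astrocyte marker fell. The part of these markers in the ribosomal protein result was not tested.

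**Figure D4:**
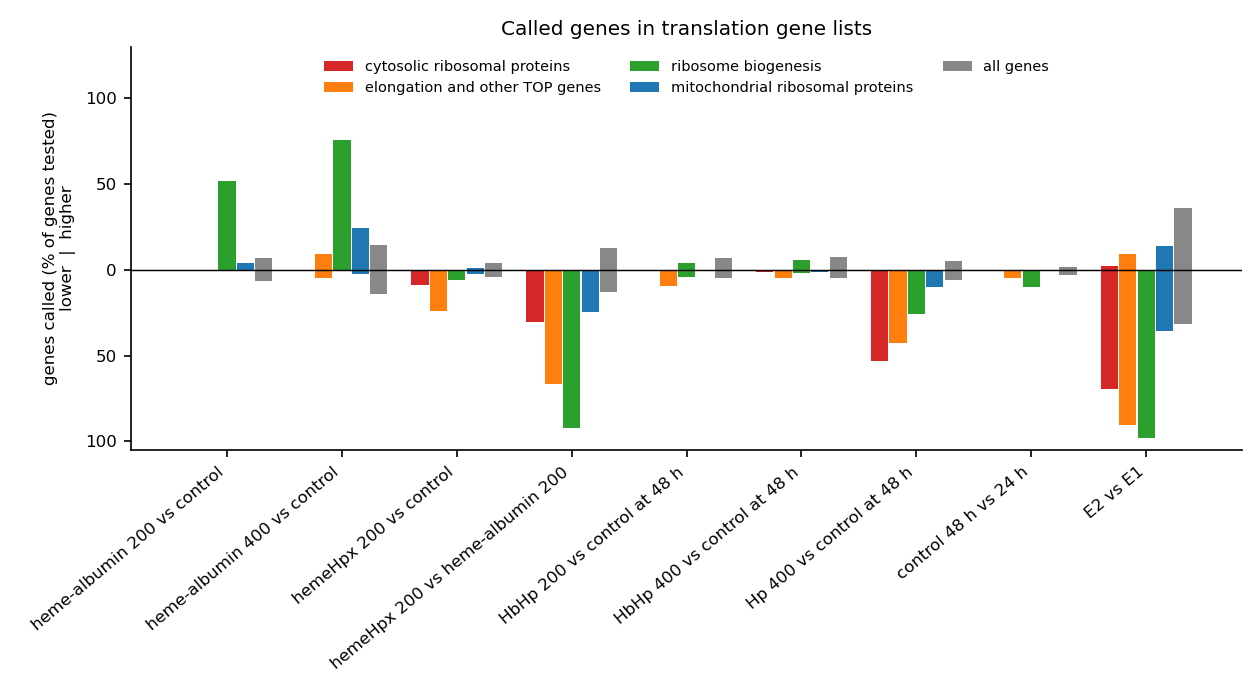
Percent of each translation list (cytosolic ribosomal proteins, ribosome biogenesis, elongation and other TOP genes, mitochondrial ribosomal proteins) and of all genes tested called higher (above 0) or lower (below 0) in each comparison, at an adjusted p under 0.05. Biogenesis factors rise with heme-albumin at 200 and 400 µM (26 and 38 of 50) where no cytosolic member was called.

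Members with tissue-restricted expression stood apart in level. Rpl10l, a germ-cell paralog of Rpl10, had 0 counts in every assigned library, where 3 counts, the limit that a count of 0 allows, correspond to 0.0554 to 0.272 CPM. Rpl3l, a paralog of Rpl3 found in striated muscle, had at most 15 counts in a library and 0 in 20 libraries. Rpl39l, a paralog of Rpl39 known from testis, was detected in every library, but with at most 114 counts. Its median was 0.48 CPM in batch 1 controls (0.05 to 1.34 CPM) and 0.58 CPM with hemeHpx (0.17 to 2.16 CPM). At 48 h its median was 0.50 CPM in controls (0.31 to 1.88 CPM), 1.53 CPM with HbHp 200 µM (0.57 to 2.41 CPM) and 1.67 CPM with HbHp 400 µM (0.83 to 2.06 CPM). All HbHp libraries are of prefix E2, where the gene was higher (log2 difference of 1.02 against E1), and 7 of the 9 controls are of prefix E1. These ranges overlapped, and no treatment comparison called the gene: hemeHpx against heme-albumin gave 1.10 (SE 0.433, adjusted p = 0.0514) and HbHp 400 µM against control at 48 h 0.67 (SE 0.527, adjusted p = 0.460).

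Within groups the members varied as a unit. After removing group means, and batch and prefix where they differ, each member was correlated over libraries with the mean of the other members. The median Pearson r was 0.88 over the 60 libraries of batch 1 and 0.89 over those of batches 2 and 3, where other genes had medians of -0.01 and -0.04. In both sets 76 of 79 members had r of at least 0.5, with Rpl12 (0.98 in batch 1) and Rpl32 (0.97 in batches 2 and 3) highest. The exceptions were Rpl39l (-0.39 and -0.16), and in batch 1 also Rpl35 (0.21) and Rpl26 (0.43). The family mean had a within-group SD of 0.17 on the log2 scale in batch 1 and 0.11 in batches 2 and 3. These correlations share library, depth and scaling between the genes and are given as a description.

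**Figure D5:**
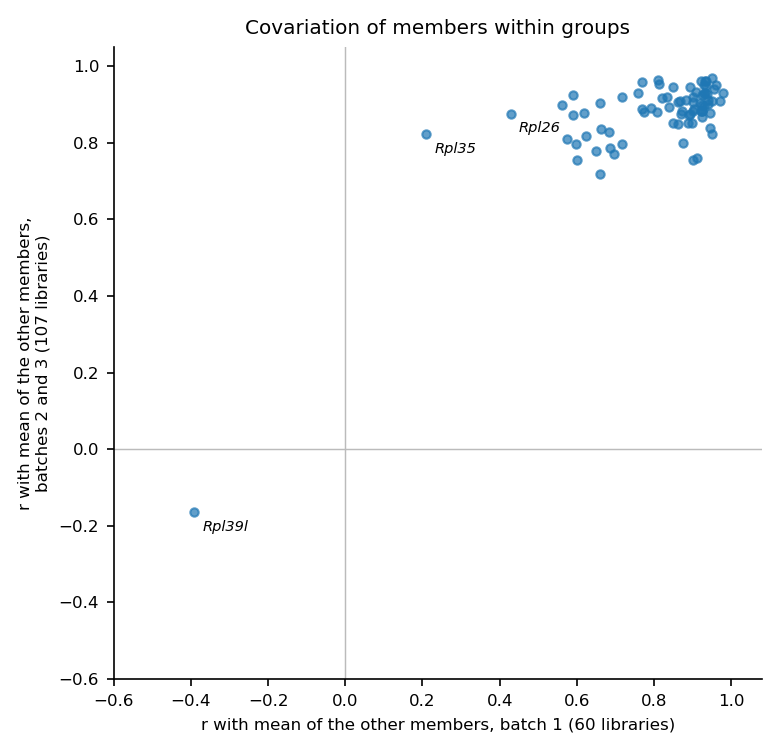
Correlation of each member with the mean of the other members over libraries, after removing group means, in batch 1 (horizontal axis, 60 libraries) and in batches 2 and 3 (vertical axis). Of 79 members, 76 have r of at least 0.5 in both, and Rpl39l has a negative r in both.

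Members with a start tract and those without one had similar medians. With Hp at 48 h the 26 members with a tract had a median log2 fold change of -0.21 and 12 calls, and the 33 tested members whose window held none had a median of -0.21 and 18 calls. For hemeHpx against heme-albumin the medians were -0.18 for both, with 8 and 11 calls, and against the control -0.08 and -0.11, with 3 and 2 calls. The 3 were Rps6, Rps26 and Rpl31, whose windows are printed above. For E2 against E1 the medians were -0.09 and -0.11. No test was made of this split.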

How the data were processed

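The authors extracted RNA from BSCs (Lexogen SPLIT), made TruSeq mRNA libraries and sequenced them on NovaSeq instruments. The deposited files hold raw counts per Ensembl gene and library. The submitters' processing notes name featureCounts and GRCm39. The aligner, annotation, strand setting and treatment of multiply mapped reads are not given in the sources used here. No one of 293 annotated pseudogenes named after members is listed in the files, and 18 members overlap another listed gene, so reads shared with copies or neighbours may be missing or misplaced. Symbols came from GENCODE M21 (GRCm38), which matched 25600 and 25475 of the listed identifiers. Start windows came from RefSeq (GRCm38.p6).

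Counts were tested with edgeR 4.0.16 (R 4.3.3): TMM scaling, filterByExpr (min.count 10, min.total.count 15), glmQLFit and glmQLFTest, Benjamini-Hochberg adjustment over all 15554 genes of batch 1 or 16473 of batches 2 and 3, threshold 0.05. Batch 1 was fitted alone. Counts of members at an unadjusted p under 0.05 are a description, and most are given without the share of all genes at that threshold. Batches 2 and 3 were fitted with batch and the library-name prefix (E1 or E2) as terms. CPM used TMM-scaled library sizes, and log2 CPM values a prior count of 2. Fold changes came from the quasi-likelihood fit at its default prior count. Total counts per library (11038484 to 54174784) set the floors, which cover counting error only. The SEs came from the quasi-likelihood fit and include the spread between libraries. The fit was tested on simulated data. DESeq2 1.42.0, other scalings, no filter, GC and length correction, blocks, single prefixes or batches and left-out libraries were alternatives. Members named in the text were those with set roles (stalk, ubiquitin fusions, Rpsa, Rps6, Rps19, Rpl13a, Rpl5, Rpl11, paralogs) and, per comparison, the 3 strongest calls in each direction with a mean of at least 1 CPM, with at most 2 for each other list; Rps28, Rpl31, Rpl17, Rpl7a and the members named for abundance or correlation were added after their values were seen. A few genes are counted but not reported by name here. Members and lists were chosen with earlier results of these data known. The 21 libraries without a clear group (20 with a tag for hemoglobin and hemopexin but titles with haptoglobin, 1 control with contradictory times) entered no comparison.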

Additional observations from a re-analysis of the deposited data

Results flagged for a closer look

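In groups of 4 to 10 libraries, a library was marked when its gap to the nearest other one was large for the range of its group (Dixon's criterion at 95%, which marks about 1 in 20 groups by chance). This was done for the share of counts and for 13 members with set roles, and 24 of 224 tested cases were marked.

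Of the 24, 12 came from replicate 1 of HbHp 200 µM at 48 h. Its share of counts on the family was 2.83%, with the nearest library of the group at 1.98%. Its levels were 865.6 CPM for Rplp0 (nearest library 623 CPM), 582.7 for Rplp1, 430.7 for Rps27a, 293.7 for Fau, 1239 for Rpsa, 338.2 for Rps6, 329.4 for Rps19, 636.6 for Rpl13a, 433.5 for Rpl5, 348.6 for Rpl11 and 82.78 for Rps27l, each the highest of its group. Its total count of 30215855 and mitochondrial share of 2.90% lay within the range of batches 2 and 3. Without this library 3 members were called in HbHp 200 µM against control at 48 h, against 0 with it.

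The share of counts was lowest, 1.49%, in replicate 6 of Hb 400 µM at 24 h (nearest 1.90%). Rplp1 was 311.7 CPM in replicate 7 of Hb 200 µM at 48 h. Rps27a was 296.0 CPM in replicate 8 of heme-albumin 400 µM and 234.8 CPM in replicate 3 of HbHp 400 µM at 24 h, and Fau was 194.5 CPM in replicate 9 of the 48 h control. Rpl39l was 2.14 CPM in replicate 8 of heme-albumin 50 µM, 2.37 CPM in replicate 8 of Hb 400 µM at 24 h, 1.88 CPM in replicate 7 of the 48 h control and 2.61 CPM in replicate 2 of HbHp 200 µM at 24 h. Rps27l was 41.03 CPM in replicate 8 of heme-albumin 12.5 µM, 84.4 CPM in replicate 8 of 200 µM and 94.72 CPM in replicate 8 of 400 µM.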

How the results depend on the processing

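Of 260 recomputed counts of members called, 221 stayed within 1.5 times the reported count and 39 moved. Reported counts of 0 that stayed at 0 are among the 221, so this tally does not measure how stable the non-zero counts were. For hemeHpx against control (7) DESeq2 gave 11, no filter 0 and GC and length correction 0, and against heme-albumin (24) GC and length correction gave 43. GC and length correction gave 1 call for heme-albumin 400 µM, 1 for HbHp 400 µM at 24 h, 1 for Hp at 24 h and 2 for HbHp 400 µM at 48 h (reported 1). HbHp 400 µM at 48 h also gave 0 without filter, 10 without the prefix term, 0 in E2 alone, 0 in batch 3 alone, 5 without batch and prefix terms, and 0 to 2 when single libraries were left out. Hp at 48 h (42) gave 27 without filter, 0 in E2 alone and 0 in batch 3 alone. Without the prefix term HbHp 200 µM gave 4 at 48 h and HbHp 400 µM 1 at 24 h, and HbHp against Hb gave 12 at 24 h and 2 at 48 h, where DESeq2 gave 1 at 24 h. Without batch and prefix terms HbHp 200 µM gave 1 at 24 h and 8 at 48 h, HbHp 400 µM 2 and Hp 1 at 24 h; without replicate 1, HbHp 200 µM gave 3 at 48 h. On total counts instead of scaled ones the family's median level in HbHp 400 µM at 48 h was 1.86%. The title numbers and the code in the library names (a letter with a number of unstated meaning) were checked as a replicate block. Not every pair exceeded 0.1, the mark set for pairing, so the block stayed an alternative. Correlations of single pairs spread widely, so this mark cannot decide whether the libraries are paired. Deviations of libraries with the same code in batch 1 had r from -0.76 to 0.89, with a median of 0.24 (-0.03 for different codes), and 21 of 60 libraries correlated best with their own code, a hint from the data, not the design. In batches 2 and 3 the median was 0.04, and 14 libraries correlated best with their own code. The block on the code gave 19 calls for hemeHpx against control, 38 against heme-albumin, 0 for HbHp 400 µM at 48 h and 8 for Hp at 48 h, and together with GC and length correction 23, 46, 1 and 22, and 2 for heme-albumin 400 µM. The title number as block, for Hb 200 µM, gave 0 and 0. Fau reversed to -0.19 for hemeHpx against control under block and correction, and to 0.19 for HbHp 200 µM at 48 h without batch and prefix terms. The cause of these moves was not tested. The no-term, E1, batch 3 and left-out replicate 1 alternatives were chosen after seeing the data.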

Other observations

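The 21 libraries that the labels put in no group had shares of counts on the family from 1.61 to 2.21% (median 1.82%), and all 21 lay within the range of the control libraries of batches 2 and 3. Their total counts ran from 19334987 to 49733389.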
